A study of Allium sativum with 18 samples.

Results

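Among the 57561 gene IDs measured by RNA sequencing in garlic (*Allium sativum*) bulbs, 73 gave transcripts that were dominant in some groups and abundant in all 6. They were chosen by their group mean FPKM, the deposited measure of level, in which the fragments of a gene are divided by its length and by the library's total. A gene was taken when the largest of its 6 group means was at least 1500 FPKM and the smallest at least 150 FPKM. The groups were basal clove and storage clove of plants labelled Chalingzipisuan, parted by hand, from bulbs that were enlarging, dormant or germinating with short shoots. Each of the 6 groups had 3 biological replicates, 18 libraries in all, and no treatment or genotype set them apart. Of all genes, 119 reached 1500 FPKM in a group and 524 stayed at 150 FPKM or more in every group mean, and the 73 are the genes on both lists. Because levels chose the members, their levels, shares and ranks are given as descriptions without a test.

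A garlic clove is a storage organ formed from modified leaves around a bud, and it holds fructans and sulphur-containing flavour precursors. Garlic bulbs are known for very abundant proteins, among them mannose-binding lectins and alliinase, the enzyme that releases allicin when tissue is crushed. Storage organs in general put much of their mRNA into a small set of storage, stress-related and protein-synthesis genes, and a sprouting bulb shifts from keeping reserves to using them. The deposited table does not pair its IDs with gene names, so which of the 73 encode such proteins is not known here, and the members are described by ID, level and pattern.

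Reads assigned to genes, recovered from the steps of the FPKM values, numbered 6540146 to 21897520 per library, with the shallowest libraries in dormant storage clove. The lowest count behind any member in any library was 234 reads. In some groups 1 library resembled the other tissue of its stage more than its replicates did. The mean Spearman correlation of storage enlarging replicate 2 with the basal enlarging libraries was 0.895, against 0.868 and 0.857 for its replicates. That of basal germinating replicate 3 with the storage germinating libraries was 0.829, against 0.798 and 0.778. Over the 56 members whose libraries did not overlap between the germinating tissues, basal replicate 3 was the basal library nearest to storage clove for 36. Over the 63 such members in enlarging bulbs, storage replicate 2 was the storage library nearest to basal clove for 34. Other libraries showed this too, basal dormant replicate 3 for 34 of 62 members and storage germinating replicate 1 for 28 of 56. The mean correlation of storage germinating replicate 1 with the basal germinating libraries was 0.823, against 0.779 and 0.804 for its replicates. The part of this in the results was not tested. Values without storage enlarging replicate 2 and basal germinating replicate 3 are given beside the shares, the correlations and the counts between the tissues. Where libraries named above are left out below, only these are meant. Basal dormant replicate 3 and storage germinating replicate 1 stay in those values.

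The 73 transcripts held their largest share of the library in enlarging basal clove and their smallest at germination. They made up 15.4% ± 0.193 of total FPKM in basal and 12.2% ± 0.105 in storage clove of enlarging bulbs (mean ± SD, n = 3 libraries here and below). In dormant bulbs the share was 12.8% ± 0.319 in basal and 12.8% ± 0.206 in storage clove, and at germination it was 10.4% ± 0.447 and 10.01% ± 0.634. The 3 enlarging basal libraries, at 15.2% to 15.6%, lay above all the others, and the 6 germinating libraries, at 9.34% to 10.8%, lay below the 12 of earlier stages, which began at 12.1%. The dormant tissues overlapped, as did the germinating tissues. Without basal germinating replicate 3 and storage enlarging replicate 2 the shares of those groups were 10.6% and 12.2%. In bulk samples such as these, fewer cells that express a gene and less of its RNA per cell cannot be told apart.

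**Figure D1:**
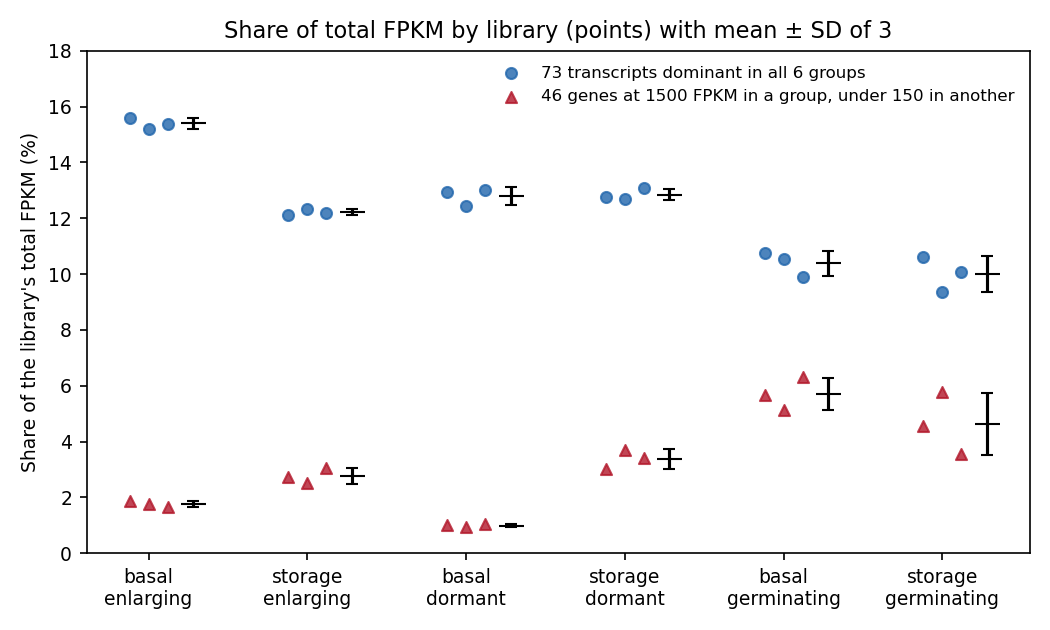
Share of total FPKM (%, vertical axis) in each library, by group, for the 73 members (circles) and for the 46 genes that reached 1500 FPKM in a group but fell under 150 in another (triangles), with mean ± SD of 3 libraries in black. The members lie between 15.2% and 15.6% in enlarging basal clove and between 9.34% and 10.8% at germination. By mean, the 46 other genes hold least in dormant basal clove and most at germination, though dormant and germinating storage libraries overlap.

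By group mean, the share held by the highest genes of a library, whichever they were, was smallest in dormant basal clove. Its libraries, at 13.8% to 14.4% for the 73 highest genes, overlapped those of enlarging storage clove, at 14.0% to 14.4%. The 73 highest genes of each library held 14.6% ± 0.252 of total FPKM in germinating basal and 14.8% ± 1.02 in germinating storage clove. They held 14.2% ± 0.31 and 15.7% ± 0.263 in dormant basal and storage clove, and 16.9% ± 0.206 and 14.3% ± 0.227 in enlarging basal and storage clove. The lowest single library was germinating storage replicate 3, at 13.7%, and the germinating and dormant storage libraries overlapped. Fewer of those highest genes were members at germination. By group mean, 55 members were among the 73 highest genes in enlarging basal clove, 51 in enlarging storage, 52 in dormant basal, 49 in dormant storage, 41 in germinating basal and 35 in germinating storage clove. The 46 genes that reached 1500 FPKM somewhere but fell under 150 elsewhere held 0.986% ± 0.058 of FPKM in dormant basal clove and 5.71% ± 0.582 in germinating basal clove. In storage clove they held 3.37% ± 0.341 at dormancy and 4.62% ± 1.1 at germination, with libraries that overlapped. These genes, too, were picked by their levels, and the shares are a description.

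The load was spread over many members at every stage. The highest member of a library held between 0.642% ± 0.0829 of total FPKM, in germinating storage clove, and 0.937% ± 0.032, in dormant storage clove. The 10 highest members of a library held 35.2% ± 0.833 to 38.4% ± 0.708 of the members' FPKM, and between 16 and 19 members were needed to reach 50% of it. Members were ranked from 1 to 73 by group mean. In all, 24 members stood in the members' top 10 of at least 1 group, and 2 stood there in all 6.

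Those 2, named here after their values were seen, were Asa6G06669.1 and Asa7G00373.1. Asa6G06669.1 was the highest of all genes in each of the 12 libraries before germination. It stood at 9649, 9492 and 10337 FPKM in enlarging basal, 7784, 7784 and 7033 in enlarging storage, 8777, 8573 and 9015 in dormant basal, and 10222, 9572 and 9861 in dormant storage clove. At germination it stood at 3505, 3529 and 3239 FPKM in basal and 5314, 4448 and 5136 in storage clove, below every earlier library, and took place 5 and place 3 among the members. Asa7G00373.1 kept to places 2 to 9, from 3298 ± 118 FPKM in dormant storage to 7300 ± 57.8 in dormant basal clove.

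**Figure D2:**
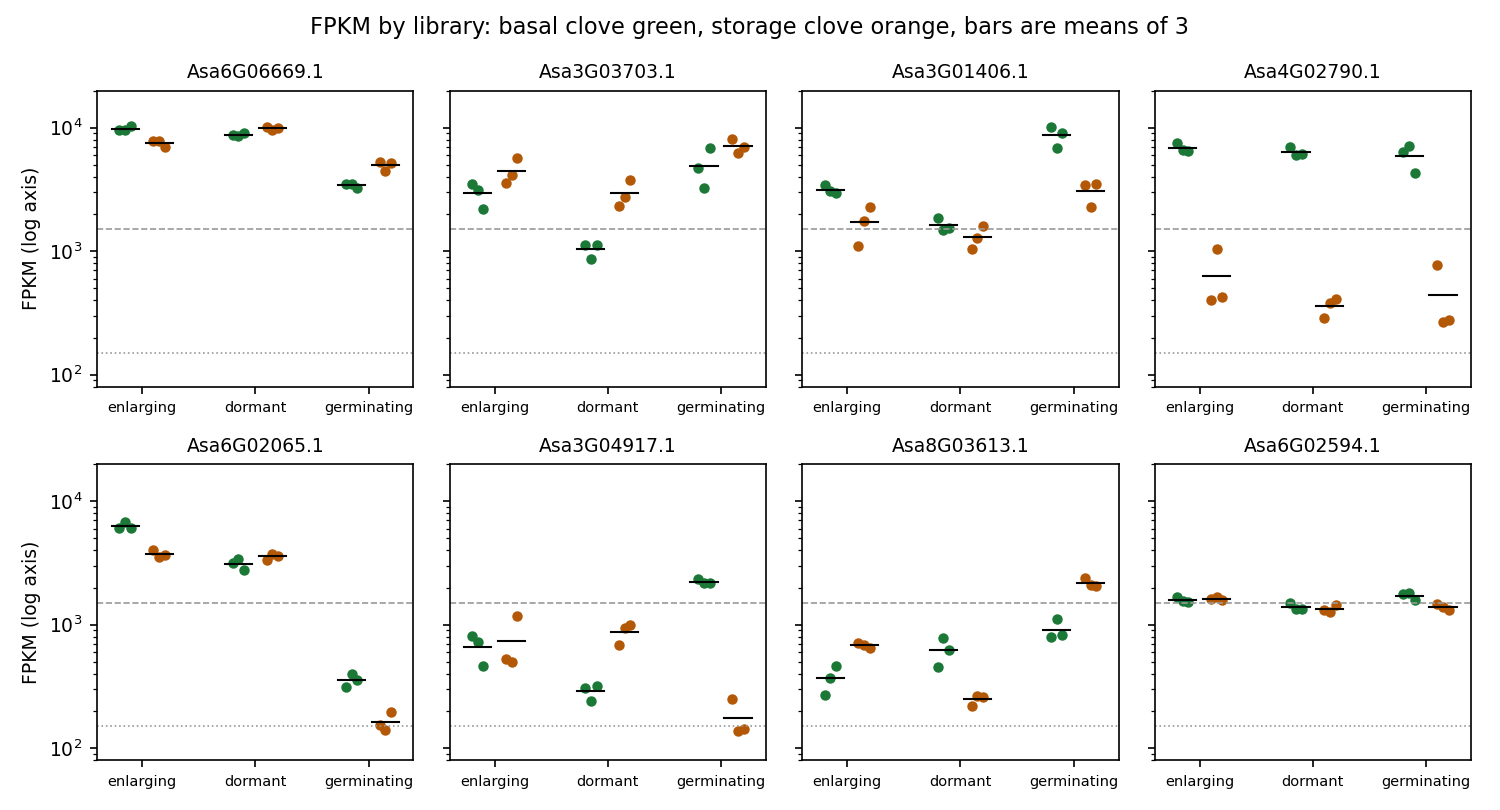
FPKM of 8 members in each library (log axis), by stage, with basal clove in green, storage clove in orange and bars at the means of 3 libraries. Dashed and dotted lines mark 1500 and 150 FPKM. Asa6G06669.1 lies lower at germination in both tissues, Asa4G02790.1 is separated by tissue at each stage, and Asa6G02594.1 stays between 1272 and 1814 FPKM.

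At germination other members led. Asa3G01406.1 was the highest member, and the highest gene by group mean, in germinating basal clove, at 10054, 6896 and 9116 FPKM. It had stood at 1853, 1497 and 1535 FPKM in dormant basal clove, at place 31, and at 3449, 3089 and 2932 FPKM in enlarging basal clove. In storage clove it stood at 1100, 1753 and 2296.5 FPKM when enlarging, 1040, 1289 and 1601 when dormant, and 3410.3, 2270 and 3476 when germinating. Every germinating library of a tissue thus lay above every dormant library of that tissue. Asa3G03703.1 was the highest member in germinating storage clove, at 8087, 6260 and 6929 FPKM, second among all genes to Asa2G05973.1, which is no member. It showed a wide spread among replicates, with 4711, 3224 and 6829 FPKM in germinating basal clove, and in basal clove it went from place 56 at dormancy, at 1035 ± 148 FPKM, to place 4.

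The order of the members was kept most between enlarging and dormant clove of a tissue, and less between tissues and at germination. Between enlarging and dormant clove, Spearman correlations over the 73 group means were 0.83 in basal and 0.86 in storage clove. Between dormant and germinating clove they were 0.44 in basal and 0.25 in storage clove, and between enlarging and germinating clove 0.49 and 0.47. Between the tissues they were 0.36 when enlarging, 0.33 when dormant and 0.30 when germinating, and without the libraries named above 0.33 when enlarging and 0.27 when germinating. The lowest of the 15 pairs was dormant storage against germinating basal clove, at -0.05. Replicates of a group correlated at 0.93 to 0.99 over the same members. These are correlations across genes chosen by level, and the points of a pair of groups share the gene models and the library totals, so no p is given.

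**Figure D3:**
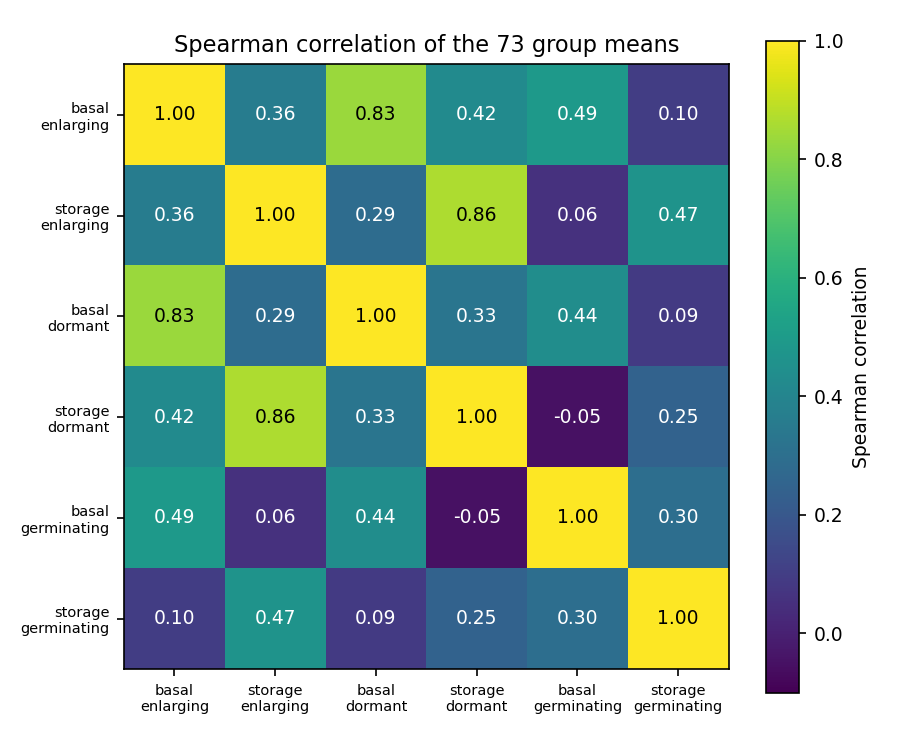
Spearman correlation of the group mean FPKM of the 73 members for each pair of the 6 groups. The dormant and enlarging groups of the same tissue correlate at 0.83 and 0.86, while dormant storage and germinating basal clove correlate at -0.05.

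The 451 genes that also stayed at 150 FPKM or more in every group mean but never reached 1500 kept more of their order. Their correlations were 0.69 in basal and 0.49 in storage clove between dormant and germinating bulbs, and 0.76, 0.63 and 0.77 between the tissues at the 3 stages. Both lists were cut from the same group means that are correlated here. The range of the 451 genes is capped by the rule. A member needs 1500 FPKM in only 1 group and may lie as low as 150 FPKM in the others. The difference between the lists therefore cannot be read as a trait of the members, and it was not tested.

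Counted in places, the median member moved 5 places from enlarging to dormant in either tissue, 14 places from dormant to germinating in basal clove and 17 in storage clove. At least 20 places were moved by 10 members in basal and 6 in storage clove at dormancy, and by 26 and 32 members at germination. The members' top 10 shared 8 genes between enlarging and dormant basal clove and 7 between enlarging and dormant storage clove, but 4 between dormant and germinating clove in each tissue. By weight, 86.8% of the members' FPKM was common to enlarging and dormant basal clove when each member's part of the members' total was compared, 88.8% in storage clove, and from dormancy to germination 72.98% was common in basal and 70.3% in storage clove.

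**Figure D4:**
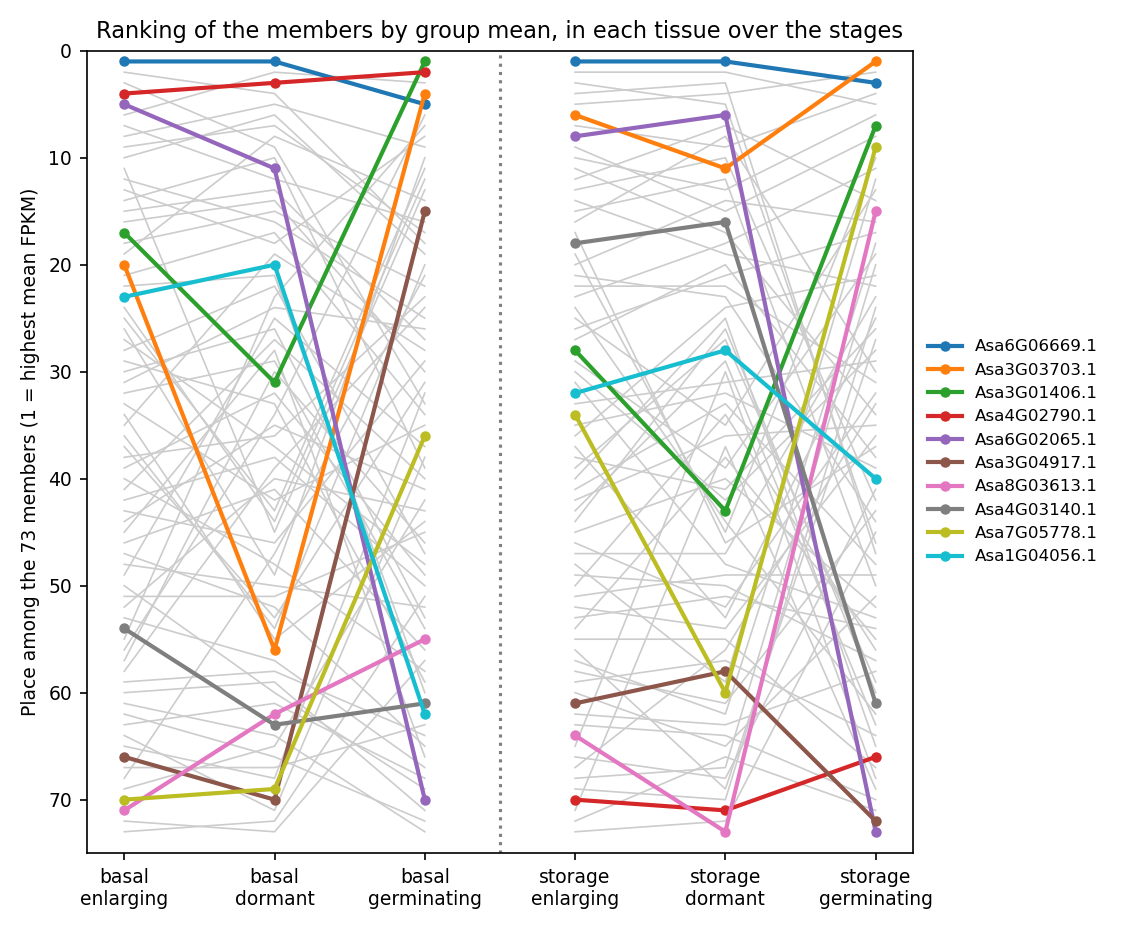
Place of each of the 73 members by group mean FPKM (1 is the highest), over the stages of basal clove on the left and storage clove on the right. The coloured lines are 10 members named in the text and the grey lines the others, and the median member moved 5 places from enlarging to dormant clove, against 14 in basal and 17 in storage clove from dormant to germinating.

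Single members crossed most of the ranking. Asa6G02065.1 had the largest fold between group means, 38.7. It stood at 6066, 6799 and 6073 FPKM in enlarging basal, 3996, 3533 and 3675 in enlarging storage, 3146, 3411 and 2768 in dormant basal and 3315, 3757 and 3628 in dormant storage clove. At germination it stood at 314, 396 and 356 FPKM in basal and 153, 141 and 195 in storage clove, with no overlap with any earlier library. Its place went from 11 to 70 in basal and from 6 to 73 in storage clove. Asa1G04056.1 went from place 20, at 2160 ± 92.3 FPKM, to place 62, at 671 ± 64.1 FPKM, in basal clove. Asa4G03140.1 went from place 16, at 2424 ± 84.4 FPKM, to place 61, at 594 ± 51.6 FPKM, in storage clove.

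In the other direction, Asa3G04917.1 stood at 308, 243 and 320 FPKM in dormant basal and 2363, 2162 and 2183 in germinating basal clove, and moved from place 70 to place 15. In storage clove the same gene went the other way, from 684, 945 and 997 FPKM at dormancy to 249, 137 and 144 at germination, the last of these means being 12.7-fold below that of germinating basal clove. Asa8G03613.1 was the lowest member in dormant storage clove, at 221, 265 and 258 FPKM, and took place 15 in germinating storage clove, at 2377, 2081 and 2049 FPKM. Asa7G05778.1 moved from place 60, at 797 ± 63.5 FPKM, to place 9, at 2549 ± 225 FPKM, in the same tissue. The groups compared in these sentences did not overlap.

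The step into dormancy moved fewer members so far. In basal clove Asa5G00573.1 climbed from place 55, at 1181, 1199 and 1485 FPKM, to place 23, at 1897, 2102 and 2138 FPKM, while Asa3G03703.1 dropped from place 20 to place 56. In storage clove Asa5G05559.1 climbed from place 65, at 468, 659 and 835 FPKM, to place 30, at 1667, 1420.2 and 1731 FPKM, while Asa6G04610.1 dropped from place 17, at 2294, 2058.5 and 2230 FPKM, to place 46, at 1244, 1096 and 1350 FPKM. Within each of these comparisons the 3 libraries of one stage all lay above those of the other.

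At the other end, 13 members kept all 6 group means within 2-fold. The steadiest was Asa6G02594.1, with group means from 1347 ± 94.8 FPKM in dormant storage to 1722 ± 115 in germinating basal clove, 1.28-fold apart. Asa1G03029.1 ranged from 1227 ± 99.8 FPKM in germinating basal to 1583 ± 111 in enlarging basal clove, 1.29-fold. Those folds depended on the scaling of the libraries, and between the same groups they became 1.49 and 1.02 after median-ratio scaling. Of the other members, 36 had a fold of 2 to under 5, 15 of 5 to under 10 and 9 of 10 or more, with a median fold of 3.44 over all 73. A group mean of at least 1500 FPKM in every group was reached by 8 members.

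The group in which a member was highest was most often enlarging basal clove, with 26 members. There were 3 with their largest mean in enlarging storage, 11 in dormant basal, 9 in dormant storage, 11 in germinating basal and 13 in germinating storage clove. Members highest before germination, 49 in all, held 12.6% ± 0.17 of total FPKM in enlarging basal clove, 10.6% ± 0.275 in dormant basal and 6.10% ± 0.514 in germinating basal clove. In storage clove they held 9.18% ± 0.317, 10.3% ± 0.0847 and 6.06% ± 0.409. The 24 members highest at germination held 2.23% ± 0.0488 in dormant basal clove and 4.29% ± 0.204 once it germinated, and 2.56% ± 0.164 and 3.94% ± 0.226 in storage clove. Grouping members by where they are highest fixes the direction of these shares, and their sizes are what they add. No member had its smallest mean in enlarging basal clove, and 27 had it in germinating storage clove.

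**Figure D5:**
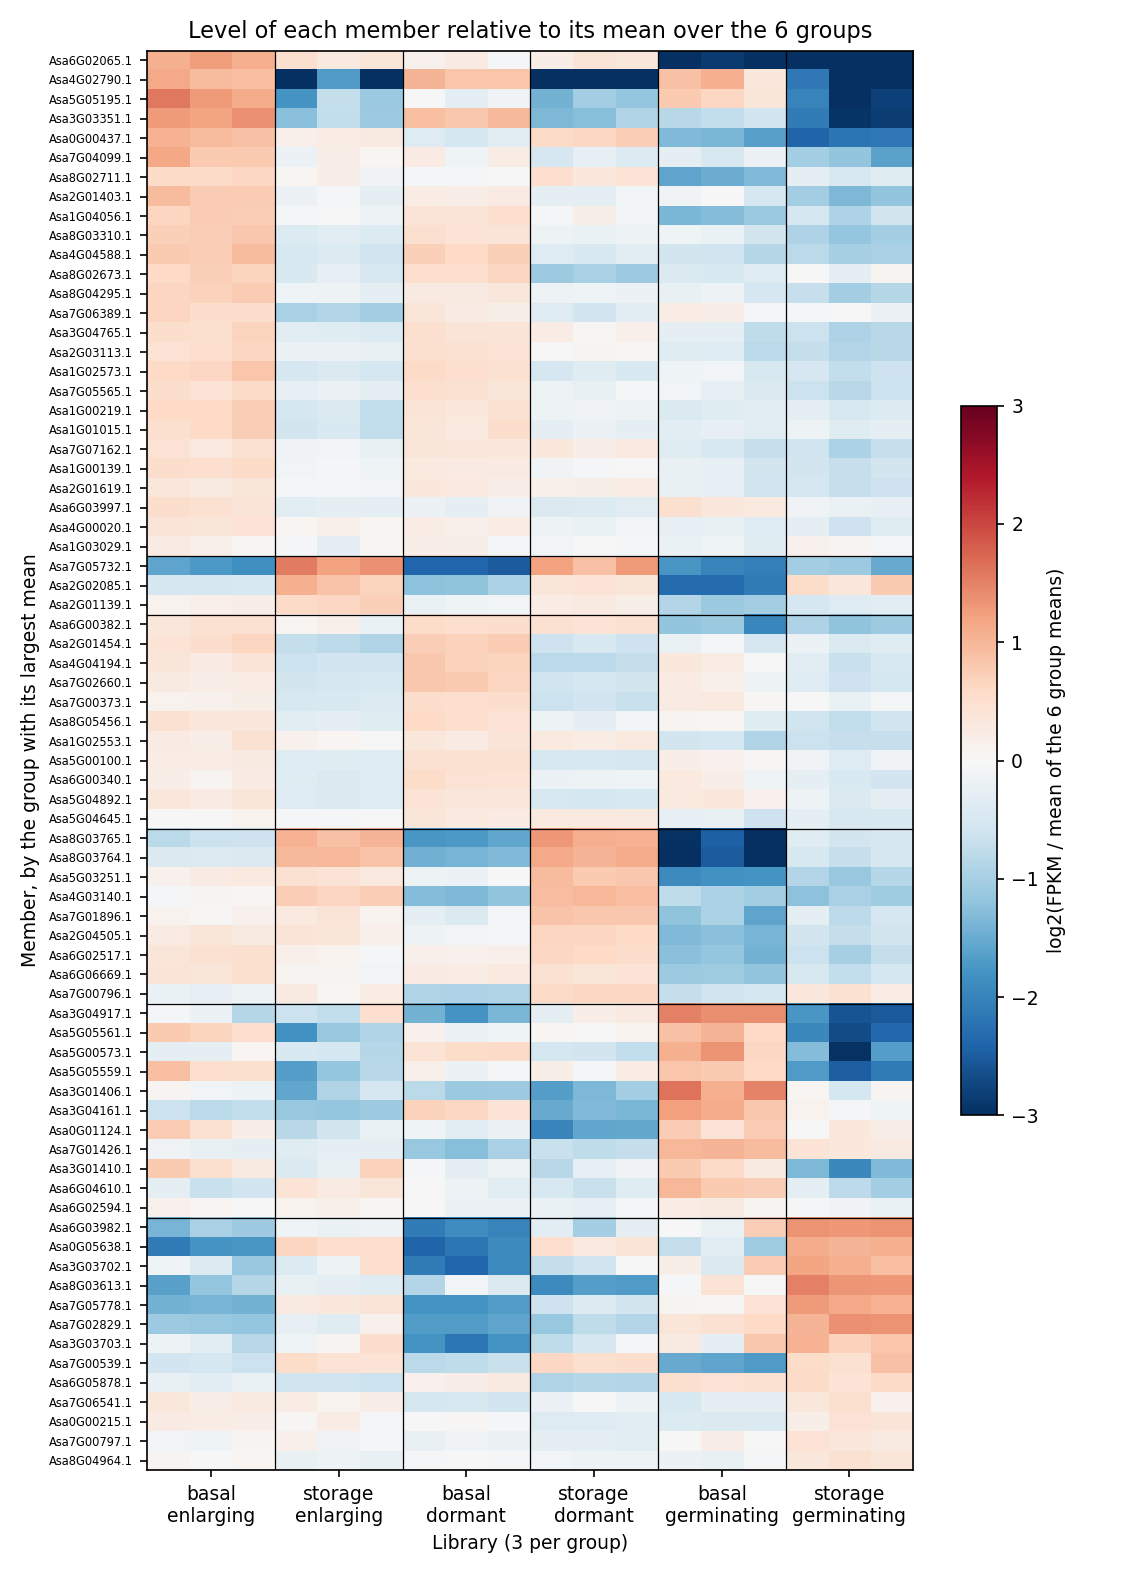
log2 of each member's FPKM over the mean of its 6 group means, for 73 members (rows, ordered by the group with their largest mean and by fold) and 18 libraries (columns, 3 per group). Red is above and blue below the member's mean, and colours end at 3 in either direction. The 26 members of the top block are highest in enlarging basal clove and the 13 of the bottom block in germinating storage clove.

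The difference between the tissues was then set against the rest of the transcriptome with limma on log2(FPKM + 1), in a fit to 30530 genes that all 73 members entered. A gene was called when its Benjamini-Hochberg adjusted p was below 0.05. Since the rule used the same group means, and genes with many reads have a smaller spread, nothing is read from the counts beyond their size. In enlarging bulbs, basal clove was called higher than storage clove for 44 members and lower for 14, where 28.7% and 22.8% of all genes tested were called. At dormancy 34 were called higher and 23 lower, beside 34.6% and 23.1% of all genes. At germination 36 were called higher and 26 lower, beside 25% and 35.4%. The median difference of the members was 0.44, 0.22 and 0.20 on the log2 scale at the 3 stages, and that of all genes 0.06, 0.10 and -0.16. Without the libraries named above, 45 members were called higher and 14 lower when enlarging, and 38 and 27 at germination. After quantile normalization the counts were 33 and 18 when enlarging and 25 and 29 at germination, so the direction held by more members at germination depended on the scaling.

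Libraries of the tissues did not overlap at any stage for 32 members, of which 20 were above in basal and 12 above in storage clove, beside 15.3% and 12.7% of all genes tested. Without the libraries named above, which leaves smaller groups that part more easily, the counts were 26 and 13, beside 18.0% and 14.1%. Asa4G02790.1 was the widest of the former, with 7511, 6551 and 6415 FPKM in enlarging, 6913, 6056 and 6095 in dormant and 6318, 7145 and 4267 in germinating basal clove. In storage clove it stood at 400, 1049 and 427 FPKM when enlarging, 288, 377 and 411 when dormant, and 776, 265 and 279 when germinating. Its highest enlarging storage value is in replicate 2 and its lowest germinating basal value in replicate 3, the libraries described above as nearer to the other tissue. Without them its means in those groups were 414 and 6731 FPKM. For 13 members the order of the tissues turned between stages without overlap, beside 13.1% of all genes tested. Asa8G03613.1 was above in storage clove when enlarging and germinating, and above in basal clove at dormancy, at 452, 786 and 620 FPKM against 221, 265 and 258.

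From enlarging to dormant basal clove, 9 members were called higher and 36 called lower, where 16.5% and 15% of all genes were. In storage clove 17 were called higher and 15 lower, beside 6.14% and 14.1%. The median change of the members was -0.29 in basal and 0.03 in storage clove on the log2 scale, and that of all genes -0.01 and -0.07. The splits moved with the scaling, to 17 higher and 22 lower in basal clove after quantile normalization, and to 24 higher and 11 lower after median-ratio scaling or 8 and 21 after quantile normalization in storage clove. The interaction of tissue and stage was called for 38 members, beside 28.6% of all genes. Of these, 28 had the more positive change in storage clove, or 16 of 31 after quantile normalization.

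From dormant to germinating basal clove, 23 members were called higher and 43 called lower, beside 26.1% and 42.7% of all genes. In storage clove 23 were called higher and 40 lower, beside 30.8% and 29%. The median change of the members was -0.44 in basal and -0.29 in storage clove, and that of all genes -0.27 and 0.01. Median-ratio scaling took the median of all genes in basal clove to -0.02, and then 28 members were called higher and 36 lower. With libraries that did not overlap, 31 members were below their dormant level in both tissues and 14 above it in both, beside 23.6% and 19.2% of all genes tested. Opposite ways were taken by 16 members, 9 of them upward in basal clove, beside 6.5% and 2.08% of all genes. The rule used these levels, and nothing is read from the counts. The interaction was called for 42 members, beside 42.6% of all genes. Of these, 17 had the more positive change in basal clove, but 30 of 49 after median-ratio scaling, which moved the median interaction of all genes from -0.28 to -0.08.

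Some members stand next to each other in the numbering of the IDs. There were 5 pairs with numbers at most 5 apart. Asa8G03764.1 and Asa8G03765.1, both with a coding length of 243 bp, stayed within 0.786 to 1.12 of each other in all 18 libraries, while their levels ran over a 15.1-fold and a 15.8-fold range of group means. Asa8G03764.1 stood at 2713, 2467 and 2639 FPKM in dormant storage clove and at 155, 216 and 148 in germinating basal clove. Asa5G05559.1 and Asa5G05561.1 stayed within a ratio of 0.913 to 1.27. Asa3G03702.1 stood at 0.226 to 0.362 of Asa3G03703.1 in every library.

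The remaining pairs parted. Asa3G01406.1 stood at 1.22 to 1.49 times Asa3G01410.1 in enlarging basal clove, 2.82 to 4.59 times in germinating basal and 5.31 to 5.32 times in germinating storage clove, although both have a coding length of 354 bp. Asa7G00796.1 stood at 1.35 to 1.5 times Asa7G00797.1 in dormant basal clove and at 4.35 to 4.62 times in dormant storage clove. The sources used here do not say whether reads were shared between such neighbours, so the levels of a pair with like sequences may be uncertain. Over the numbering series of the IDs, from 0 to 8, members numbered between 4 and 15, the most in series 7, which holds 7755 of all IDs.

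Gene length is a divisor in FPKM, so the rule favours short models, and the lengths of the members are a description. The members' coding lengths, recovered with the reads, ran from 162 to 1986 bp with a median of 489 bp, against 765 bp for the 30530 genes tested and 570.0 bp for the 451 genes of the lower level. In all, 46 members were shorter than 600 bp and 11 longer than 1200 bp. Counted as reads, which are not divided by length, the members held a smaller share of the library, from 12.8% ± 0.187 in enlarging basal to 7.09% ± 0.525 in germinating storage clove. The order of the groups was not the same on that scale. Germinating basal clove, at 7.80% to 8.72% of reads, overlapped enlarging storage clove, at 8.36% to 8.65%, so the 6 germinating libraries did not all lie below the 12 earlier ones. Dormant basal clove, at 10.9% ± 0.317 of reads, stood above dormant storage clove, at 8.89% ± 0.106, where the shares of FPKM overlapped.

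By median, replicates of the members differed less before germination than at germination. The median coefficient of variation within a group was 5.34% in enlarging basal, 5.73% in enlarging storage, 5.12% in dormant basal and 4.90% in dormant storage clove, and 10.9% and 9.21% in germinating basal and storage clove. The 451 genes of the lower level had 3.78% to 4.25% before germination, and 9.73% and 6.22% at germination. The widest member was Asa4G02790.1, with 66.2% in germinating and 58.7% in enlarging storage clove. Each of these values rests on 1 library described above as nearer to basal clove. In germinating storage clove replicate 1 stood at 776 FPKM, against 265 and 279. In enlarging storage clove replicate 2 stood at 1049 FPKM, against 400 and 427. The tightest value was that of Asa7G05778.1 in enlarging basal clove, 0.302%.

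Near the thresholds, the members just inside the upper one were Asa5G00100.1, with a largest mean of 1522 FPKM, and Asa2G01139.1, with 1563 FPKM. Just outside lay Asa7G06679.1, at 1495 FPKM, and Asa3G03690.1, at 1471 FPKM. At the lower threshold Asa6G02065.1, with a smallest mean of 163 FPKM, and Asa8G03764.1, with 173 FPKM, were just inside, and Asa6G01928.1, at 147 FPKM, and Asa5G05313.1, at 104 FPKM, just outside. A single library fell under 150 FPKM for some members, so that 68 of the 73 were at 150 FPKM or more in every library, and the lowest value of a member in a library was 110 FPKM.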

How the data were processed

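The authors deposited 1 table of FPKM values, in which each library has its own column (18 in all), per the file headers. Libraries came from total RNA with an Illumina kit, per the labels' protocols. The submitters' processing notes name HISAT2. Its version, the counter, genome build, annotation and use of strand were not given in the sources used here. Whole reads, library totals and coding lengths were recovered from the steps of the values. The lengths of 400 genes were whole at 21 of the totals tried, and the largest was used (mean deviation 3.2e-06 bp). Other totals gave a mean deviation of 0.248 bp, which cannot decide among the 21. The library totals and coding lengths given here rest on the choice of the largest. The values fix only the product of total and length, so a smaller total goes with longer lengths for the same reads. At the largest total, the recovered reads made up 99.99% of the total in each library. The other totals were not compared in this way. With the shortest length that gave whole reads for a gene, 100% of 595800 values above 0 were whole within 0.01 reads, which the search of lengths itself favours. Reads carry no molecular identifiers that the sources name.

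Group means were taken over the deposited values. Tests used limma 3.58.1 in R 4.3.3 on log2(FPKM + 1), for genes with at least 1 FPKM in at least 3 libraries, in a model of 6 group means over all libraries (12 residual and 3.8 prior degrees of freedom), with a variance trend and adjustment over all genes in each of 9 comparisons. The step was also run on simulated data in which a small part of the genes was changed in 1 group only. Many more genes were called in these data, so the simulation does not bear on how the counts depend on scaling. Named members were the highest in each group, the 2 with the largest and the 2 with the smallest fold, the largest movers in the ranking between stages, and those nearest the thresholds. Other IDs were chosen after their values were seen. The members, lists and tests were chosen with earlier results of these data known. No pair of replicates agreed within sampling noise (chi-square per gene of 2.68 to 65.9), and each library was counted as 1 replicate. The chi-square cannot tell whether replicates shared plants or bulbs, and the labels do not say.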

Additional observations from a re-analysis of the deposited data

Results flagged for a closer look

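For the 18 named members, the change between stages was compared between the tissues with the limma interaction (Benjamini-Hochberg adjusted over all genes). The members were chosen, and several of them named, by the same group means, so the sizes are given as descriptions with no p. From enlarging to dormant, 10 of the 18 were called at an adjusted p below 0.05, beside 28.6% of all genes tested. Sizes are given as the log2 change in basal minus that in storage clove. The change was more positive in basal clove for Asa8G03613.1 by 2.21, Asa6G04610.1 by 1.20, Asa7G05778.1 by 0.51 and Asa5G00100.1 by 0.33. It was more positive in storage clove for Asa5G05559.1 (-1.97), Asa4G03140.1 (-1.53), Asa3G04917.1 (-1.52), Asa8G03764.1 (-1.10), Asa6G02065.1 (-0.96) and Asa6G06669.1 (-0.55).

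From dormant to germinating, 12 of the 18 were called, beside 42.6% of all genes tested, and nothing is read from either count. The change was more positive in basal clove for Asa3G04917.1 by 5.29, Asa5G05559.1 by 2.96, Asa4G03140.1 by 2.39, Asa5G00573.1 by 1.89, Asa6G02065.1 by 1.33, Asa6G04610.1 by 1.20 and Asa3G01406.1 by 1.19. It was more positive in storage clove for Asa8G03613.1 (-2.55), Asa1G04056.1 (-1.01), Asa5G00100.1 (-0.62), Asa1G03029.1 (-0.45) and Asa6G06669.1 (-0.36). The median interaction of all genes was 0.10 for the former step and -0.28 for the latter.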

How the results depend on the processing

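The number of members was 73 to 76 with group medians, other scalings, each replicate number left out, or without storage enlarging replicate 2 and basal germinating replicate 3 (an alternative chosen after seeing the data), and at least 69 of the 73 were kept. Thresholds of 1000 and 100 FPKM gave 165 members and thresholds of 2000 and 200 gave 38. In the order basal enlarging, storage enlarging, basal dormant, storage dormant, basal germinating and storage germinating, the share of total FPKM became 22.4%, 18.5%, 20.1%, 19.5%, 16.1% and 16.1% with the former and 10.7%, 8.30%, 8.68%, 8.74%, 7.27% and 6.80% with the latter. As shares of recovered reads it was 12.8%, 8.47%, 10.9%, 8.89%, 8.41% and 7.09%.

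Ranked by recovered reads, which keep the length of a gene in every group, members correlated at 0.70, 0.68 and 0.51 between the tissues, at 0.93 and 0.94 between enlarging and dormant basal and storage clove, and at 0.65 and 0.61 between dormant and germinating clove. The correlation of dormant and germinating storage clove, first given as 0.245, ranged from 0.248 to 0.255 when each replicate number was left out. All 252 totals of called members over both directions were within 1.5 times the total first given. Of the 504 counts in 1 direction, 5 were not, each under quantile normalization or median-ratio scaling and each printed in the report. Deviations of same-numbered libraries correlated weakly between groups (-0.24 to 0.12), which cannot exclude that such libraries shared plants or bulbs. With the replicate number as a replicate block, 57, 58 and 62 members were called between the tissues at the 3 stages. Counting error is part of the spread of members with few reads. The chi-square per gene between replicates was lowest in dormant storage clove, 2.68 to 3.62, where the libraries were also the shallowest.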
